A study of Mus musculus with 6 samples.

Results

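Cardiac mesoderm is laid down by a small set of transcription factors, and 10 of them are described here in differentiating mouse ESCs with and without Snail: Isl1, Mef2c, Tbx20, Hand1, Hand2, Nkx2-5, Gata4, Gata5, Gata6 and Zfpm2. All probe sets whose only gene symbol in the array annotation is one of these names were taken, which gave 25 of the 34945 probe sets with 1 symbol and 10 of 18193 genes. Isl1 has 2 probe sets, Mef2c 5, Tbx20 3, Hand1 2, Hand2 3, Nkx2-5 1, Gata4 2, Gata5 2, Gata6 3 and Zfpm2 2. Of the 25, 3 were above the low-signal limit (explained below) on all 6 arrays, 20 on at least 1 array and 5 on none.

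The A2.snail line is a mouse ESC line in which doxycycline (dox) turns on a Snail transgene. Cells of all groups carry the transgene and were grown as embryoid bodies in serum-containing medium with DKK1 (DKK), a secreted Wnt inhibitor. The DKK cultures received no dox, and the DKK + dox cultures received dox at 250 ng/mL on day 2. RNA was taken 6, 12 and 24 hours after dox (days 2.25, 2.5 and 3) for 1 Affymetrix array per treatment and time, 6 in all. No array has dox without the transgene, so dox and Snail cannot be told apart, and whether the line is a single clone is not given in the sources used here. With 1 array per condition, a difference at a single time is a difference of 2 arrays, has no replicate check and carries no test.

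During heart formation Nkx2-5, the GATA zinc finger factors Gata4, Gata5 and Gata6, the MADS-box factor Mef2c, the T-box factor Tbx20 and the basic helix-loop-helix factors Hand1 and Hand2 act together at the control regions of heart genes. Isl1, a LIM-homeodomain factor, marks the progenitors of the second heart field, which build the right ventricle and the outflow tract, and Mef2c is among its direct targets there. Zfpm2 (also called Fog2) is a zinc finger cofactor that attaches to GATA factors, Gata4 above all, and changes what they do. Several of these genes are not particular to the heart: Gata4, Gata5 and Gata6 are active in extraembryonic endoderm, Isl1 in motor neurons, Mef2c in endothelium and Hand1 in extraembryonic mesoderm. Snail is a zinc finger repressor that binds the E-box CAGGTG, as in the promoter of Cdh1, the gene of E-cadherin.

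The windows upstream of the genes that rose with dox are shown first, because Snail acts through a short DNA word that can be looked for there. They are the 250 bases before the start of Isl1, of the 3 annotated starts of Mef2c and of Tbx20, from RefSeq on GRCm38.p6, written 5′ to 3′ on the strand of the gene, with capitals marking every E-box of the general form CANNTG. The positions are chr13:116309689-116309938 (minus strand) for Isl1. For Mef2c, on the plus strand, they are chr13:83503784-83504033 (start 1), chr13:83523406-83523655 (start 2) and chr13:83573357-83573606 (start 3). The Tbx20 window is chr9:24774304-24774553 (minus strand).
Isl1: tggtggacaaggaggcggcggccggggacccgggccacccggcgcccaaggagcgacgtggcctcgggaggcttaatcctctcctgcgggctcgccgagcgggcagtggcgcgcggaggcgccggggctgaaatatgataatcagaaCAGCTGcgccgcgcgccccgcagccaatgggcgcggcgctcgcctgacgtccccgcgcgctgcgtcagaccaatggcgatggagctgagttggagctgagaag
Mef2c start 1: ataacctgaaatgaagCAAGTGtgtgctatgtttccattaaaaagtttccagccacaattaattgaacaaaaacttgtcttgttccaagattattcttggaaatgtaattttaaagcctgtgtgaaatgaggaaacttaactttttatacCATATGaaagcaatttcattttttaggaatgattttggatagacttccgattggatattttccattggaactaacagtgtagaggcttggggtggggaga
Mef2c start 2: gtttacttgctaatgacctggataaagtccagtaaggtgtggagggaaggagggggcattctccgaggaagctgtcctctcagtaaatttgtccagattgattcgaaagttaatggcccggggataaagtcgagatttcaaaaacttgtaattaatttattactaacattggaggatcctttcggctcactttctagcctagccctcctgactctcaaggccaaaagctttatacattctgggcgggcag
Mef2c start 3: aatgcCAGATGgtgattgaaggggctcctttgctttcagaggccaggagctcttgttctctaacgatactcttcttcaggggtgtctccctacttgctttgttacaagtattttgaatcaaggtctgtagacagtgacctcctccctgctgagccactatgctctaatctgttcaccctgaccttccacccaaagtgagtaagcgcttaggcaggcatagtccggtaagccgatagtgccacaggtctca
Tbx20: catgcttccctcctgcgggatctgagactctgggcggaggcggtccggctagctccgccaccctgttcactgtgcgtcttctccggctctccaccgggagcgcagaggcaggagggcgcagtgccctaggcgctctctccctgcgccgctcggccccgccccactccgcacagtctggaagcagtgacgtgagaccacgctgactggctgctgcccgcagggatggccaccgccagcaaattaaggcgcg
Isl1 holds one CANNTG, with the letters CAGCTG at position -103 from the start, and Mef2c holds CAAGTG and CATATG before start 1 and CAGATG before start 3. Neither start 2 of Mef2c nor Tbx20 holds one. The word CAGGTG or its reverse complement CACCTG, which is one case of CANNTG, was found in 0 of the 8 windows of 300 bases (250 before and 50 after the start) that cover 6 of the 10 genes, namely these and those of Hand2, Gata5 and Nkx2-5. Among all 32851 such windows of the genome, 20.2 percent hold it, and 72.3 percent hold some CANNTG. The GATA word AGATAA or its complement TTATCT, present in 11.2 percent of all windows, was found in Isl1 (at position 11, after the start) and in Hand2 (at position -172). A match is only a match of letters, and the absence of one says only that these letters are not in these windows. Gata4, Gata6, Hand1 and Zfpm2 were not looked at in this way.

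Array values were deposited as linear intensities, and the brightest probe set of a gene, by its mean over the 6 arrays, stands for that gene. An intensity of at most 37.2, the 40th percentile of all values, was taken as low signal. A difference is always that of the array with dox (DKK + dox) from the array without dox (DKK) of the same time, in log2(intensity + 20.6), a scale that understates the change of low genes. Each gene was tested with limma for a dox effect proportional to the hours elapsed, with the time point as a block, and what is called its fitted difference is the height of that line at 24 hours. The p-values set the fitted difference against the scatter of the 6 arrays around the fit. That scatter has 2 residual degrees of freedom, is moderated with 5.5 prior ones taken from all genes tested, and contains no spread between replicate cultures. The intensities of different genes come from different probes and are not compared. In bulk RNA, more cells that express a gene and more RNA per cell cannot be told apart. The array medians lay between 53.5 and 63.7. Pou5f1, a marker of pluripotent cells, read 5672 to 6764 on the 6 arrays. The labels could not be checked on Snai1, whose probe set read between 10.9 and 32.9 and never passed the low-signal limit (whether it lies in the transgene was not analysed here). Cdh1, which Snail represses, read 4481, 5957 and 6222 without dox and 3465, 2868 and 3063 with dox at 6, 12 and 24 hours.

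Of the 10 genes, 4 rose with dox (Isl1, Mef2c, Tbx20 and Zfpm2), 0 fell and 6 stayed above the threshold of 0.05 for the adjusted p of limma. Over all 14755 genes tested, 8.32 percent rose and 6.38 percent fell. In 3 of the 10, Isl1, Mef2c and Zfpm2, every DKK + dox array lay above every DKK array, as it did in 5.1 percent of all genes tested, and in 0 of the 10 did every one lie below (7.09 percent). The 2-fold counts are on the log2 scale with its added constant. At 24 hours 4 genes were at least 2-fold higher with dox (3.12 percent of all genes tested) and at 12 hours 2 were, Isl1 and Mef2c (1.27 percent). At 6 hours 0 were (0.271 percent). At least 2-fold lower were 0 of the 10 at 6, 12 and 24 hours, against 0.468, 2.25 and 2.2 percent. Without the constant, the ratio of DKK + dox to DKK also exceeded 2 for Mef2c (2.82) and Zfpm2 (2.39) at 6 hours. It did so too for Tbx20 (5.75) and Zfpm2 (2.45) at 12 hours and for Nkx2-5 (2.23) at 24 hours. Each of these ratios has a low-signal DKK value below the line. Taken by sign alone, 6, 9 and 10 of the 10 were higher with dox at the 3 times, against 41.9, 54.2 and 52.3 percent, and 5 were higher at all 3, against 21.5 percent. The median difference over the 10 was 0.05, 0.32 and 0.58 at 6, 12 and 24 hours, against -0.04, 0.03 and 0.02 over all genes tested. The 6 that did not pass had medians of -0.07, 0.22 and 0.23. Isl1 and Zfpm2 are shown in a heat map made by the study from these same arrays, on a basis it does not state, so they are not independent evidence of a direction. Mef2c, Tbx20, Hand2 and Zfpm2 passed the low-signal limit only on DKK + dox arrays and so entered the test through the group in which they were higher. The count of 4 was 2 without the 24 hour arrays, and 0 when the difference was held constant over the 3 times.

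**Figure D1:**
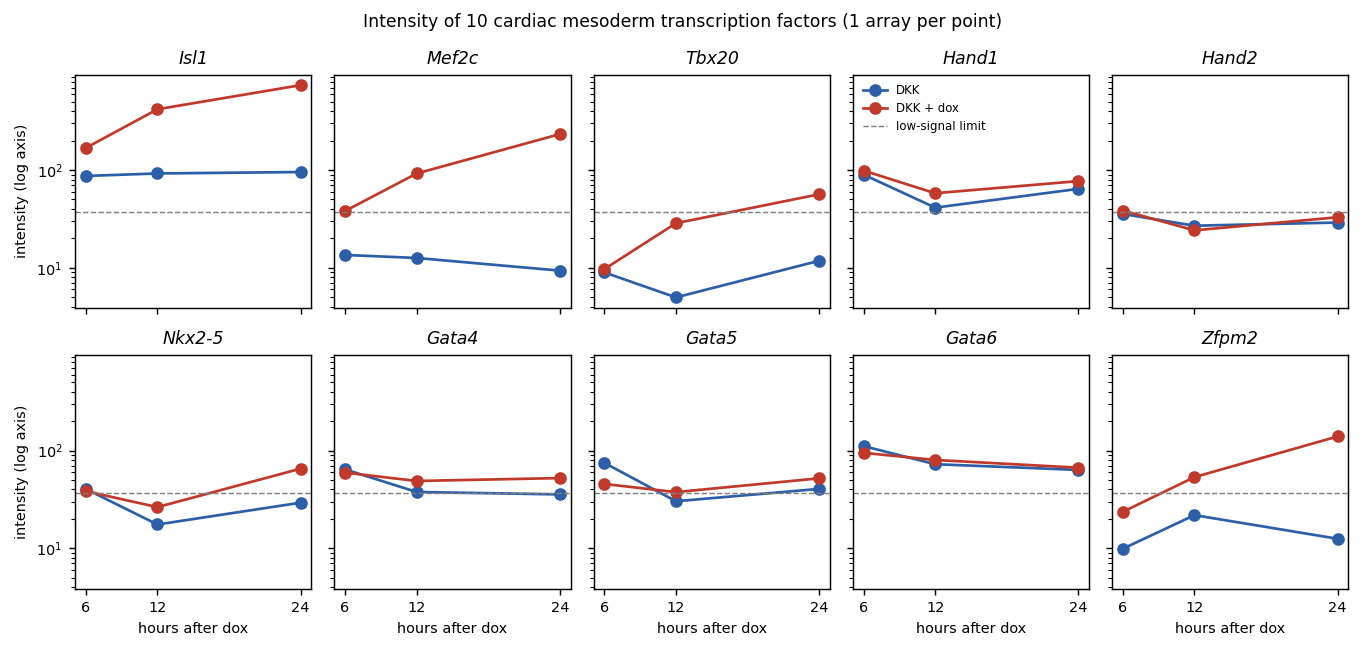
Intensity (log axis) against hours after dox for each of the 10 genes on its brightest probe set, with DKK in blue, DKK + dox in red, 1 array per point and the low-signal limit of 37.2 dashed. The red and blue lines part for Isl1, Mef2c, Tbx20 and Zfpm2 and run close together for Hand1, Hand2 and Gata6.

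Isl1 was detected without dox and was higher with dox at each time. Its intensity was 87.1, 92.4 and 95.5 without dox and 169, 420 and 741 with dox at 6, 12 and 24 hours. The DKK values are nearly level and the 3 DKK + dox values lie above all of them. The ratio of DKK + dox to DKK was 1.94, 4.54 and 7.76, and the log2 differences were 0.81, 1.96 and 2.71. The fitted difference was 2.97 (standard error 0.23, adjusted p = 0.00118 from limma). The second probe set of Isl1 was lower in signal, at 24.9, 24.6 and 23.5 without dox and 40.5, 57.4 and 122 with dox. It was over the limit on the 3 DKK + dox arrays and under it in DKK, with differences of 0.43, 0.79 and 1.69, and it rose when every probe set was tested (fitted difference 1.67, adjusted p = 0.00445 from limma). Isl1 was the only one of the 4 risen genes above the low-signal limit on all 6 arrays, so it alone was measured on both sides of the comparison.

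Isl1 also marks neurons, and markers of motor and autonomic neurons were read for that reason. Of 7 tested markers, 1 rose (Ngfr, a neurotrophin receptor that other cell types also carry, fitted difference 0.83, adjusted p = 0.0450 from limma), 0 fell and 6 did not pass, and the median difference at 24 hours was 0.13. The defining motor neuron genes Mnx1, Lhx3, Lhx4, Olig2 and Neurog2 did not pass the low-signal limit on any array. Phox2a, a factor of autonomic neurons, read 34.7, 67.1 and 81.5 without dox and 32.8, 15.7 and 38.3 with dox (adjusted p = 0.0823 from limma). The summed intensity of the 12 measured markers lay between 497 and 861 in DKK and between 452 and 729 in DKK + dox. At 24 hours it was 584 without dox and 578 with dox, of which Dbh, picked out after its values were seen, gave 184 and 203. The sum adds the intensities of unlike probes, and the part of neurons in the values of Isl1 was not tested.

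Mef2c went from under the low-signal limit in every DKK array to over it in every DKK + dox array. Its intensity was 13.5, 12.6 and 9.34 without dox and 38.1, 92.3 and 234 with dox. At 6 hours the DKK + dox value had only just passed the limit, and at 24 hours it was 6.28 times the limit. The differences were 0.78, 1.77 and 3.09, and the fitted difference was 3.17 (standard error 0.25, adjusted p = 0.00117 from limma). Since all DKK values are background, these differences depend on the constant added before the log. The fitted value was 3.87 with the 10th percentile added and 2.13 with the 50th, and it passed with both.

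The 5 probe sets of Mef2c moved the same way by different amounts. At 24 hours the other 4 read 4.28, 20.5, 30.6 and 1 without dox and 218, 65.3, 86.1 and 130 with dox, in order of their mean. Their differences were 3.26, 1.06, 1.06 and 2.80, and at 6 hours between 0.05 and 0.51. When every probe set was tested on its own, all 5 rose (fitted differences 3.17, 3.08, 1.12, 1.21 and 2.78). The one that read 1, the lowest value in the table, on the 3 DKK arrays read 1.74, 48.8 and 130 with dox. Which transcripts of the 3 starts each probe set reads was not analysed here.

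Mef2c is also a gene of endothelium, and markers of blood and endothelium were read for that reason. Of 14 tested markers 9 rose, 0 fell and 5 did not pass. The median difference was -9.8e-06, 0.64 and 1.61 at 6, 12 and 24 hours, and 7, 11 and 12 of the 14 were higher with dox. The ETS factor Fli1 rose by 3.71, the receptor Kdr by 2.77 and the blood factor Tal1 by 2.52 in the fit (adjusted p = 0.00231, 0.00453 and 0.0103 from limma). At 6 hours the differences of Fli1, Kdr and Tal1 were 0.02, -0.28 and -0.52, against 0.78 for Mef2c. Several of these markers, Kdr and Tal1 among them, are in the heat map of the study and are not independent evidence. The summed intensity of the 19 measured markers was 2157 to 2683 in DKK and 2198 to 6710 in DKK + dox, and at 24 hours it was 2157 without dox and 6710 with dox. The endothelial genes Sox18, Cdh5 and Tek rose as well (fitted differences 2.70, 1.51 and 1.33, adjusted p = 0.00246, 0.0177 and 0.0256 from limma), named here with their values already known. Cdh5 read 1, 20.0 and 29.8 without dox and 7.02, 31.6 and 145 with dox. It passed the limit, and so entered the test, only through the 24 hour array with dox. The endothelial genes Pecam1 and Tie1 and the red cell genes Hbb-bh1, Hba-x and Klf1 did not pass the limit on any array. The part of these cell types in the rise of Mef2c was not tested.

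Zfpm2 was higher with dox at each time. Its intensity was 9.89, 21.8 and 12.5 without dox and 23.6, 53.5 and 140 with dox. All 3 DKK values and the first DKK + dox value are low signal, and the groups do not overlap, though the 6 hour value with dox is close to the 12 hour value without it. The differences were 0.54, 0.80 and 2.28, and they depend on the constant added before the log, as those of Mef2c do. The fitted difference was 2.14 (standard error 0.27, adjusted p = 0.00392 from limma). Without the 24 hour arrays Zfpm2 did not pass (1.72, adjusted p = 0.172 from limma). Its second probe set went the same way by less, from 24.6, 28.4 and 33.9 without dox to 40.4, 45.4 and 64.0 with dox (fitted difference 0.73, adjusted p = 0.108 from limma when every probe set was tested). Gata4, the best known partner of Zfpm2, did not pass and is described below. Zfpm1 (Fog1), the paralogue that works with Gata1 in blood, read 38.4, 73.8 and 34.2 without dox and 44.4, 56.8 and 126 with dox (adjusted p = 0.115 from limma).

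Tbx20 gave the smallest rise that passed, close to the low-signal limit. Its intensity was 8.96, 4.97 and 11.8 without dox and 9.68, 28.6 and 56.6 with dox. Only the 24 hour array with dox passed the limit, and at 6 hours both arrays are background and the groups overlap. The differences were 0.03, 0.94 and 1.25 and the fitted difference 1.32 (standard error 0.32, adjusted p = 0.0337 from limma). The other 2 probe sets of Tbx20 were low signal on all 6 arrays, between 12.0 and 27.8 on one and between 2.64 and 30.8 on the other. They did not show the rise: their differences at 24 hours were -0.17 and -1.15. The call for Tbx20 was lost without the arrays of any single time (adjusted p = 0.0514 without 6 hours, 0.0547 without 12 hours and 0.306 without 24 hours, all from limma). It was also lost with time as a straight line (0.0876) and without the intensity trend (0.0583).

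**Figure D2:**
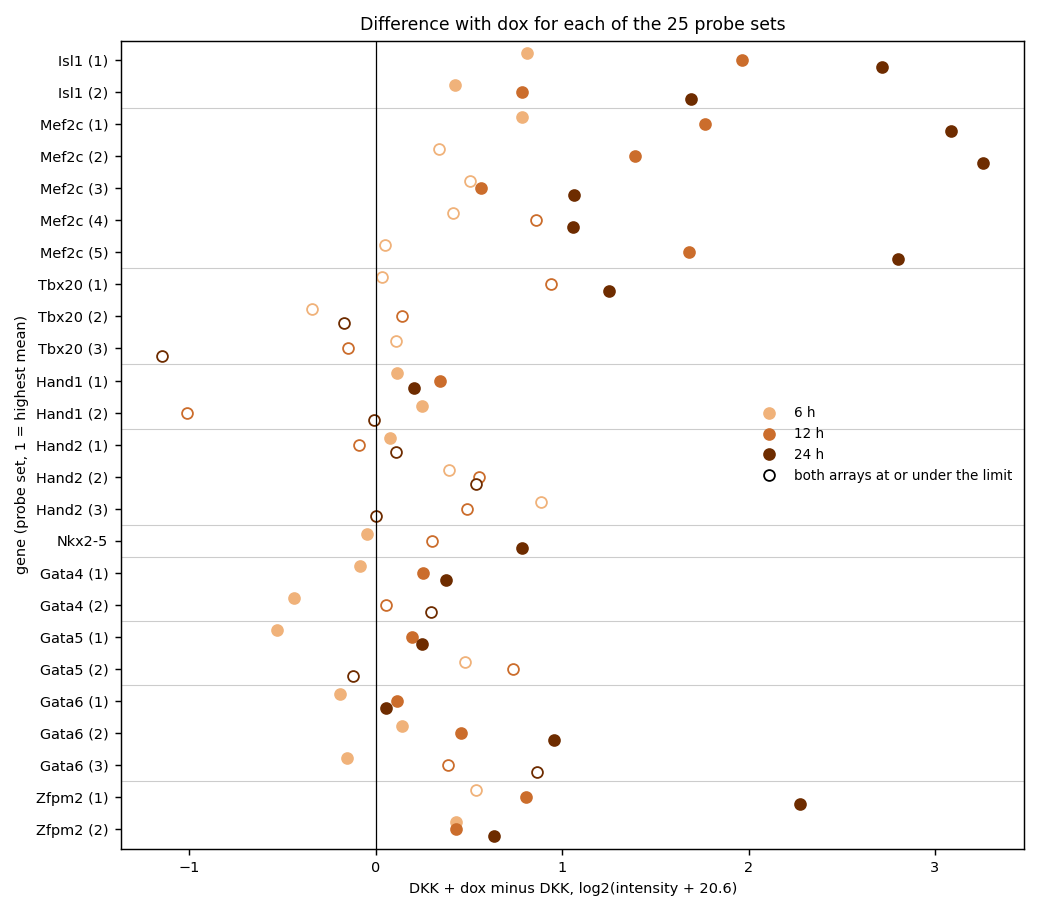
DKK + dox minus DKK, in log2(intensity + 20.6), for each of the 25 probe sets at 6, 12 and 24 hours (light to dark), with genes separated by lines, probe sets ordered by mean, and open circles where both arrays are at or under the low-signal limit. The 24 hour points of all probe sets of Isl1, Mef2c and Zfpm2 lie to the right of 0, while those of Tbx20 lie on both sides and most of its points are open.

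Nkx2-5, the homeobox factor that marks committed heart precursors, was near the limit throughout and has 1 probe set. It read 40.4, 17.5 and 29.3 without dox and 38.4, 26.4 and 65.4 with dox. The 24 hour array with dox was the highest of the 6, and the other values of the groups overlap. The differences were -0.05, 0.30 and 0.78, and Nkx2-5 did not pass (fitted difference 0.70, standard error 0.26, adjusted p = 0.124 from limma).

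Hand1 and Hand2, needed for the left and the right ventricle, had similar values with and without dox. Hand1 read 89.9, 41.3 and 64.3 without dox and 98.9, 57.9 and 77.1 with dox. It was above the limit on all 6 arrays, lowest at 12 hours in both conditions, and 0.11, 0.34 and 0.20 higher with dox. The fitted difference was 0.31 (standard error 0.22, adjusted p = 0.420 from limma). Its second probe set read 29.9, 23.1 and 33.4 without dox and 39.4, 1 and 33.2 with dox, and its difference of -1.01 at 12 hours rests on that single value at the floor of the table. Hand2 read 35.5, 26.9 and 29.0 without dox and 38.5, 24.2 and 32.9 with dox, so only 1 of 6 values passed the limit (fitted difference 0.06, standard error 0.26, adjusted p = 0.907 from limma). Its other 2 probe sets were low signal on all arrays, between 5.34 and 34.4 on one and between 1 and 19.4 on the other.

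Without dox, the 24 hour values of the GATA factors were below those of 6 hours, and with dox less so or not at all. Gata4, which drives heart and endoderm genes, read 64.2, 37.7 and 35.6 without dox and 59.5, 48.9 and 52.3 with dox. With dox it was lower at 6 hours and higher afterwards, by -0.08, 0.25 and 0.38, and it did not pass (fitted difference 0.37, standard error 0.24, adjusted p = 0.367 from limma). The second probe set of Gata4 gave -0.44, 0.05 and 0.30. Gata5 read 74.9, 30.3 and 40.6 without dox and 45.6, 37.6 and 52.1 with dox, with differences of -0.53, 0.19 and 0.25. Its 6 hour value in DKK is the highest of the 6 and the other values overlap (fitted difference 0.16, standard error 0.30, adjusted p = 0.782 from limma). The second probe set of Gata5 was low signal on all arrays, at 1 to 18.3. The 24 hour array minus the 6 hour array was -0.59 for Gata4, -0.64 for Gata5 and -0.65 for Gata6 in log2 units in DKK, and -0.14, 0.13 and -0.40 in DKK + dox. In DKK it was also below 0 for Hand1 (-0.38), Nkx2-5 (-0.29), Mef2c (-0.19) and Hand2 (-0.18). For Isl1, Tbx20 and Zfpm2 it was above 0 (0.11, 0.13 and 0.12). The median of the DKK array was 63.7 at 6 hours and 55.4 at 24 hours, and the share of all genes that went down was not counted.

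The probe sets of Gata6 disagreed. The brightest read 111, 72.6 and 63.4 without dox and 94.9, 80.2 and 66.8 with dox, and did not pass (fitted difference 0.05, standard error 0.21, adjusted p = 0.910 from limma). The second read 102, 26.2 and 10.8 without dox and 114, 43.7 and 40.3 with dox. On it the signal went down to background without dox and stayed just over the limit with dox. Its differences were 0.14, 0.46 and 0.96, and it rose when every probe set was tested (fitted difference 0.93, adjusted p = 0.0360 from limma). The remaining one read 63.7, 13.1 and 6.78 without dox and 55.2, 23.4 and 29.3 with dox, and did not pass (0.78, adjusted p = 0.121 from limma). With every probe set tested that passed the limit on at least 1 array (20 of the 25), 10 rose and 0 fell, against 6.81 percent that rose of the 26362 probe sets tested, and they belong to 5 genes: Isl1, Mef2c, Tbx20, Gata6 and Zfpm2. The 5 of Mef2c, the dimmer one of Isl1 and the brightest of Tbx20 and of Zfpm2 passed the limit only on DKK + dox arrays. These entered the test through the group in which they were higher, and probe sets of the same gene are not independent. No call on Gata6 can be given that holds for all of its probe sets.

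The summed markers of endoderm, in which Gata4 and Gata6 are also active, were, among the DKK arrays, also highest at 6 hours. The summed intensity of 15 visceral endoderm markers was 2554, 1245 and 1273 without dox and 2425, 1486 and 1810 with dox. That of 14 parietal endoderm markers was 7383, 4908 and 4354 without dox and 6982, 5203 and 7589 with dox. These sums add the intensities of unlike probes, and single genes weigh heavily: Srgn alone read 1644, 218 and 195 without dox. Not every marker was highest at 6 hours without dox. Sparc read 1322, 1675 and 1259 and Fst 219, 371 and 436, and the visceral markers Hnf4a, Rbp4 and Apob were not highest then either. These genes were picked out after their values were seen. With dox, 6 of 13 tested parietal endoderm markers rose, 1 fell and 6 did not pass (median difference 0.75 at 24 hours), and of 13 visceral endoderm markers 2 rose, 0 fell and 11 did not pass (0.19). Sox17, an endoderm factor that endothelium also uses, read 307, 97.3 and 79.9 without dox and 239, 142 and 393 with dox (fitted difference 1.67, adjusted p = 0.0180 from limma). The visceral endoderm markers Afp and Apob stayed under the limit on all arrays. The part of endoderm in the values of the GATA factors was not tested.

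Next come the genes that act before these factors, to be read against the 8.32 percent of all genes tested that rose and the 6.38 percent that fell. Of 14 tested regulators of early mesoderm 2 rose, Foxc1 (fitted difference 2.87, adjusted p = 0.00231 from limma) and Gsc (2.36, adjusted p = 0.0112 from limma), 0 fell and 12 did not pass. Foxc1 and Gsc passed the low-signal limit only on DKK + dox arrays and so entered the test through the group in which they were higher. Foxc1, a forkhead factor of paraxial and cardiac mesoderm, read 23.9, 9.99 and 16.1 without dox and 29.5, 72.9 and 256 with dox. Eomes, a T-box factor needed for Mesp1 in the embryo, read 121, 133 and 188 without dox and 106, 122 and 588 with dox (adjusted p = 0.0655 from limma). Mesp1, which marks the earliest heart precursors, stayed between 29.1 and 48.9 in DKK and between 28.3 and 37.9 in DKK + dox (adjusted p = 0.585 from limma), and was picked out after its values were seen. Brachyury (T) was not analysed here. Of 18 tested ligands and receptors that act on heart mesoderm 5 rose, 0 fell and 13 did not pass. Among them the receptors Kdr (Flk1), described above, and Pdgfra rose most. Pdgfra read 96.0, 23.8 and 18.9 without dox and 123, 66.8 and 148 with dox (fitted difference 2.02, adjusted p = 0.00252 from limma). Bmp2, a ligand that promotes heart fate, did not pass (0.79, adjusted p = 0.0951 from limma).

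The genes that act after them are those of heart muscle. Of 24 measured heart muscle genes, 8 never passed the low-signal limit, among them the troponins Tnnt2, Tnni1, Tnni3 and Tnnc1 and the calcium handling genes Ryr2 and Pln. Of the 16 tested, 1 rose, 1 fell and 14 did not pass, against 8.32 percent that rose and 6.38 percent that fell over all genes tested. The median difference at 24 hours was -0.05. Actc1, cardiac alpha actin, rose: it read 8.19, 75.7 and 77.3 without dox and 13.6, 89.8 and 385 with dox (fitted difference 1.69, adjusted p = 0.0154 from limma). Actc1 is also used in other muscle and in early mesoderm. Hopx, a homeodomain protein downstream of Nkx2-5 in the heart and used in other tissues too, fell: it read 349, 297 and 337 without dox and 290, 124 and 129 with dox (fitted difference -1.44, adjusted p = 0.00605 from limma). The summed intensity of the list was 4670 to 5034 in DKK and 4518 to 5177 in DKK + dox. Most of it came from Atp2a2, picked out after its values were seen, at 3007 to 3459 in DKK and 3045 to 3760 in DKK + dox. The sum adds the intensities of unlike probes and says little about the other genes of the list.

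**Figure D3:**
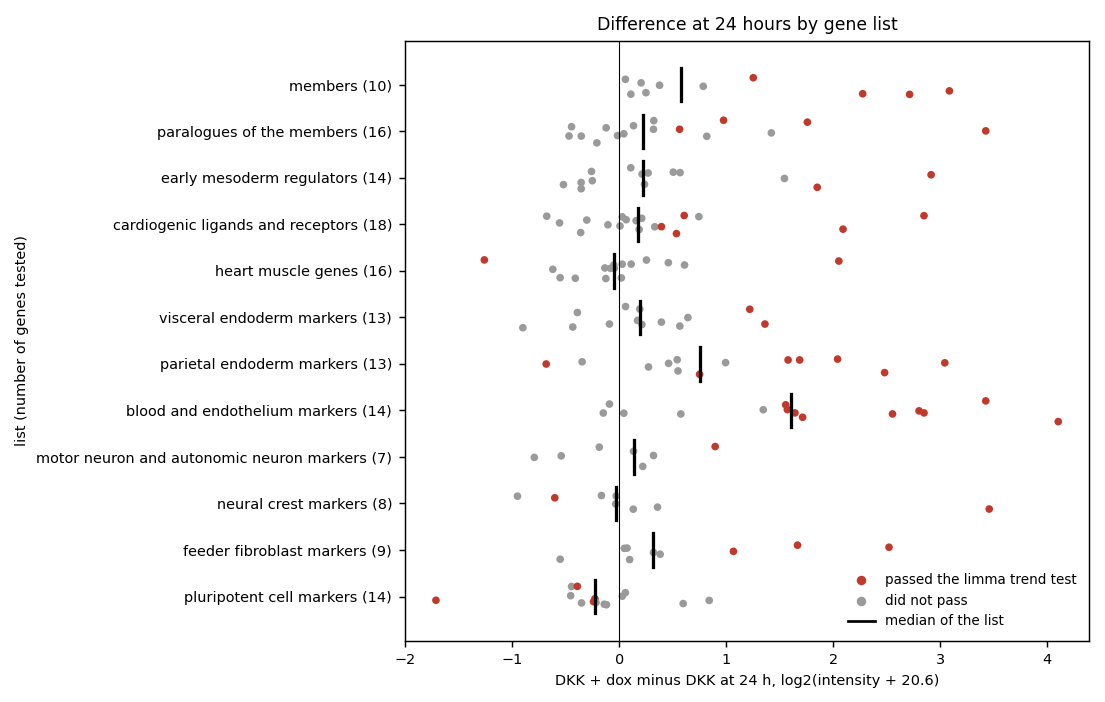
DKK + dox minus DKK at 24 hours, in log2(intensity + 20.6), for the tested genes of 12 lists (1 point per gene, red where the limma trend passed, black bar at the median). The 10 cardiac factors have a median of 0.58, heart muscle genes -0.05 and blood and endothelium markers 1.61.

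The close relatives of the 10 factors were mixed as well. Of 20 measured paralogues 4 never passed the low-signal limit (Gata3, Tbx2, Tbx18 and Nkx2-2), and of the 16 tested 4 rose, 0 fell and 12 did not pass, with a median difference of 0.23 at 24 hours. Gata2, the GATA factor of blood progenitors, read 41.8, 109 and 41.4 without dox and 21.4, 359 and 646 with dox (fitted difference 3.09, adjusted p = 0.00742 from limma), whereas its relatives Gata4 and Gata5 did not pass. Twist1, a mesenchymal relative of Hand1 and Hand2, read 90.9, 130 and 116 without dox and 154, 327 and 440 with dox (1.92, adjusted p = 0.00210 from limma). Tbx15 rose by 1.13 (adjusted p = 0.0197 from limma) and Mef2a by 0.51 (adjusted p = 0.0484 from limma). Tbx5, the limb and heart partner of Nkx2-5, picked out after its values were seen, read 37.5, 44.7 and 33.2 without dox and 31.5, 33.6 and 25.9 with dox (adjusted p = 0.518 from limma). Gata2, Twist1, Eomes and Foxc1 are in the heat map of the study and are not independent evidence.

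The remaining marker lists give the surroundings of these values. Of 8 neural crest markers 1 rose (Sox9, 3.69, adjusted p = 0.00207 from limma, which cartilage and other tissues also use), 1 fell (Foxd3, -0.65, adjusted p = 0.0235 from limma, a gene of pluripotent cells too) and 6 did not pass. Of 9 feeder fibroblast markers 3 rose (Col3a1, Pdgfrb and Fbln2), 0 fell and 6 did not pass, while Postn, Lum and Prrx1 were under the limit on all arrays. Of 14 pluripotent cell markers 4 fell, 0 rose and 10 did not pass. The fitted difference was -2.63 for Fgf5, which the study groups with primitive ectoderm. It was small for the other genes that fell: -0.32 for Sox2, -0.32 for Utf1 and -0.29 for Dnmt3b. The part of these cell types in the results for the 10 factors was not tested.

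The patterns of the genes over the 6 arrays were compared by the root mean square distance between their log2 values, each centred on its own mean. This was done for the 5 factors whose values ranged over at least 1 log2 unit. Isl1 and Mef2c were near each other: Mef2c was the nearest of all genes to Isl1 (0.14 log2 units), and Isl1 was second nearest to Mef2c, after Inka1. Elk3 (0.16) and Inka1 (0.18) came next for Isl1, and Hprt (0.16) followed for Mef2c. Zfpm2 stood 34th from Isl1 and 24th from Mef2c, and its own nearest genes were Rspo3 (0.13), Adamdec1 (0.13) and Itga1 (0.14). Tbx20 was nearest to Six5 (0.087), Tubb3 (0.097) and Scn3a (0.10), and Nkx2-5 to Cdh22 (0.081), Ifngr2 (0.086) and Trhr2 (0.087). Low signal enters these distances: Tbx20 was above the limit on 1 of 6 arrays, Zfpm2 on 2, and Mef2c and Nkx2-5 on 3, so part of each pattern is background. The 6 arrays share their treatment and times, so many genes can be alike in this sense, and the distances are a description.

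**Figure D4:**
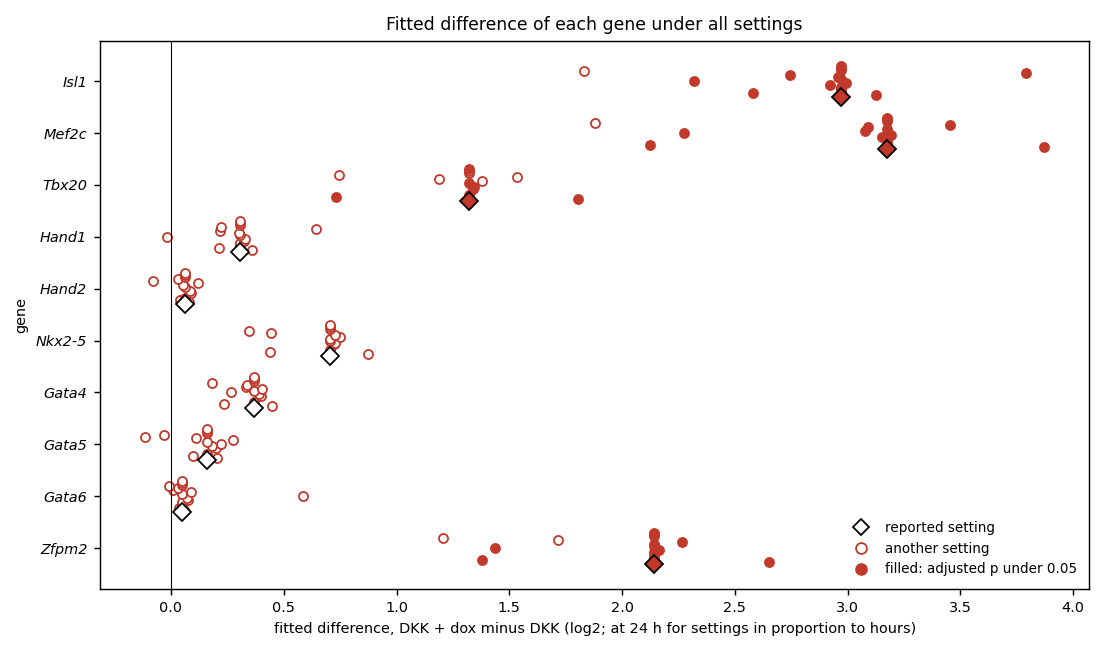
Fitted DKK + dox minus DKK difference (log2) of each of the 10 genes under the reported setting (diamonds) and each alternative (circles), filled where the adjusted p from limma was under 0.05. Isl1 and Mef2c stay to the right of 1.5 throughout, with 1 open circle each at 1.83 and 1.88 for a difference held constant over time, and no point of Hand1, Hand2, Nkx2-5, Gata4, Gata5 or Gata6 is filled.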

How the data were processed

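Mouse A2.snail ESCs in DKK, with or without dox, were measured on 6 Affymetrix MOE430 2.0 arrays. The authors normalized and modeled them with dChip (version and model form not given in the sources used here), and deposited intensities on a linear scale, whose floor of 1 is reached by 2.51 to 3.00 percent of probe sets per array. Of 45037 probe sets, 34945 carried 1 symbol in the platform annotation, 932 several and 9160 none. Of those with 1 symbol, 34741 matched the RefSeq gene table (GRCm38.p6) by Entrez ID and 0 symbols changed. Precision is limited by the number of arrays and by low signal, which 37.5 to 41.3 percent of probe sets had on each array.

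limma 3.58.1 in R 4.3.3 (lmFit, eBayes with an intensity trend, 4 coefficients, 5.5 prior degrees of freedom) fitted log2(intensity + 20.6), where 20.6 is the pooled 25th percentile, for the 14755 genes above 37.2 on at least 1 array. P-values were adjusted over these by the Benjamini-Hochberg method. The fit was run on data simulated under its own model, with normal noise and changes proportional to the hours. It recovered 66 percent of changes of 1 log2 unit and 98 percent of changes of 2, with 8 false calls. Such data cannot check whether real changes are proportional to the hours. The alternatives changed the offset, the filter on low signal, the normalization, the choice of probe set, the fold threshold, the model and which times entered. The text names the 10 factors with every probe set, Cdh1, Snai1, up to 4 genes of each list, those furthest from 0 at 24 hours, and the 3 genes nearest to a factor; other genes were added once their values were known. The 10 factors and the gene lists were chosen with earlier results of these data known. Promoters were read from a RefSeq table of 300 base windows. Plots were made in Python 3.11.15 with matplotlib 3.10.9.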

Additional observations from a re-analysis of the deposited data

Results flagged for a closer look

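For 4 of the 10 factors the array with dox was lower than the array without it at 6 hours and higher at 24 hours, each on its brightest probe set. The difference at 24 hours minus that at 6 hours was 0.83 for Nkx2-5, 0.78 for Gata5, 0.46 for Gata4 and 0.25 for Gata6 in log2 units. At 6 and 24 hours the second probe set of Gata4 (-0.44 and 0.30) and the dimmest of Gata6 (-0.15 and 0.87) turned the same way. The second probe set of Gata6 did not turn (0.14 and 0.96). That of Gata5, low signal on all arrays, turned the other way (0.48 and -0.12). Each difference is of 2 arrays, and the change between the 2 times was not tested. The share of all genes with this change of sign was not counted. By sign alone, 41.9 percent of all genes tested were higher with dox at 6 hours and 52.3 percent at 24 hours. The array medians at 6 hours were 59.1 with dox and 63.7 without. In the fit none of these 4 genes passed, with adjusted p-values from limma between 0.124 and 0.910. At 6 hours Nkx2-5 was at 40.4 and 38.4, close to the low-signal limit of 37.2.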

How the results depend on the processing

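Of the 10 factors 4 rose, and 1 of 3 tested did so when genes had to pass the low-signal limit on all 6 arrays, 2 without the 24 hour pair and 0 with a difference held constant over time. The count that fell was 0 in each setting. Over all genes 1227 rose and 941 fell. This became 793 and 533 without the 6 hour pair, 229 and 499 without the 24 hour pair, 121 and 80 with time as a straight line, 209 and 76 where the intensity trend was left out, and 0 and 0 with a constant difference. Under the last the lowest adjusted p of limma was 0.0516, and 2927 genes, 4 of the 10 factors among them, had an unadjusted p under 0.05. Isl1 and Mef2c passed in every other setting that tested them. Zfpm2 also failed without the 24 hour pair, and Tbx20 in 6 settings. Their adjusted p-values from limma with a constant difference were 0.0672 for Isl1, 0.0850 for Mef2c, 0.130 for Zfpm2 and 0.214 for Tbx20. The sign turned for Hand1 with the mean of all probe sets (-0.018), for Hand2 and Gata5 without the 24 hour pair (-0.080 and -0.12), and for Gata5 and Gata6 with a constant difference (-0.029 and -0.0066). None of these passed in any setting, apart from the second probe set of Gata6. The median of the factors at 24 hours (0.58) was 0.37 with the offset at the 50th percentile and 0.20 over the 3 above the limit on all arrays. With the limit at the 60th percentile, over 5 factors, the medians were 0.54, 0.80 and 2.28 at the 3 times. At 1.5-fold, on the log2 scale with its added constant, 2 factors were higher at 6 hours against 0, and 4 at 12 hours against 2. The cause of these shifts was not tested, apart from the fewer genes or arrays some settings use. The arrays of each time were paired in the reported fit through the time block. The labels give no replicate numbers, so no further pairing was possible. Low signal limits Mef2c, Tbx20, Zfpm2, Hand2 and Nkx2-5 most.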
